A study of Homo sapiens with 9 samples.

Results

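The Ikaros family holds 5 zinc finger transcription factor genes, IKZF1 (Ikaros), IKZF2 (Helios), IKZF3 (Aiolos), IKZF4 (Eos) and IKZF5 (Pegasus). Their rows were taken by gene symbol, 5 of the 59563 named genes listed, and all 5 were tested under both drugs. MOLM13, an established human acute myeloid leukaemia line with a KMT2A rearrangement, was grown for 72 h with solvent alone (DMSO), with iberdomide (CC-220) at 1 µM, or with mezigdomide (CC-92480) at 50 nM. Each group had 3 libraries of poly(A) RNA, 9 in all, and all came from this 1 line. Both drugs were dissolved in DMSO, and their doses differ. The deposited values are a mean over the 9 libraries and, for each drug against DMSO, a log2 fold change with its standard error (SE). Values by library were therefore not used, except for IKZF3. The labels do not state whether separate cultures were used within a group, so each p-value reflects only how these libraries scatter, and that scatter may be technical.

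Ikaros family proteins bind DNA through zinc fingers near the amino terminus and pair with each other through a further set at the carboxy terminus. Ikaros and Aiolos direct lymphoid development and recruit corepressors, while Helios and Eos are best known from regulatory T cells, and Helios also from blood stem cells. Pegasus is the most distant relative and has been linked to platelets. Iberdomide and mezigdomide bind cereblon, which chooses the substrates of a ubiquitin ligase, and steer it to a zinc finger of Ikaros and Aiolos, so that these proteins are degraded. RNA was measured here and protein was not.

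The finger that cereblon recognises is shown first, since the 5 genes differ in it. Each line below gives the 23 codons of the finger in the longest coding transcript of GENCODE 29 (GRCh38), from 2 codons before its first cysteine codon to its last histidine codon. Capitals mark the 5 codons from the first cysteine to the residue after the second cysteine, the loop that carries the glycine contacted by cereblon. For IKZF5 the finger with the most residues identical to those of IKZF1 is given.
IKZF1, finger 2 (chr7:50382551-50382619, plus strand): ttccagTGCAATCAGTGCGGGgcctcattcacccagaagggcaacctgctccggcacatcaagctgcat
IKZF2, finger 2 (chr2:213049801-213049869, minus strand): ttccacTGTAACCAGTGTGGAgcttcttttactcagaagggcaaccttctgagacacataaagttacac
IKZF3, finger 2 (chr17:39791504-39791572, minus strand): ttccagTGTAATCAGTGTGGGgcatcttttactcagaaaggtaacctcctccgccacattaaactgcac
IKZF4, finger 2 (chr12:56027791-56027859, plus strand): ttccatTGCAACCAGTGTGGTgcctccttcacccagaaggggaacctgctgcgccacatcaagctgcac
IKZF5, finger 1 (chr10:122995998-122996066, minus strand): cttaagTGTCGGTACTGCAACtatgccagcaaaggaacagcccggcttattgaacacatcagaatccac

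IKZF3 differed from IKZF1 at 13 of the 69 bases, and none of these changed a residue. IKZF2 differed at 17 bases and IKZF4 at 9, and in each of them 1 codon, codon 2, encodes another residue. Counted from 1 at the 5′ end of the finger, the change there is G6C in IKZF2 and G6T in IKZF4. The codon cag of IKZF1 and IKZF3 stands for glutamine, and cac or cat in its place for histidine. As background, this residue is known to weaken the recognition of Helios and Eos by lenalidomide-type drugs. IKZF5 matched IKZF1 at 28 of 69 bases (40.6%), and 0 of its 4 fingers found by pattern hold a glycine codon after the second cysteine.

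The 5 transcripts spanned a wide range of abundance. IKZF1 (chromosome 7, 50304068 to 50405101, plus strand, GRCh38) was listed in the authors' deposited table with a mean of 12898 normalised counts over the 9 libraries, above 99.1% of the 19497 genes tested under both drugs. IKZF5 (chromosome 10, 122990806 to 123008817, minus strand) had a mean of 1197 and IKZF4 (chromosome 12, 56007659 to 56038435, plus strand) one of 298 in the authors' deposited table. IKZF2 (chromosome 2, 212999691 to 213152427, minus strand) followed with 141 and IKZF3 (chromosome 17, 39757715 to 39864188, minus strand) with 3.61 in the authors' deposited table. IKZF1 was thus the main family transcript of these cells, and IKZF3 was near the detection limit.

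Of the 5 genes, 2 rose under iberdomide and the same 2, IKZF1 and IKZF2, rose under mezigdomide. None fell under either drug, also at an unadjusted p under 0.05, where 2 were higher under iberdomide and 3 under mezigdomide. Calls were made on the authors' Wald test, the fold change over its SE, at a Benjamini-Hochberg adjusted p under 0.05. The deposited fold changes are shrunk towards 0. The folds, intervals, implied SDs and estimated levels below are drawn from these shrunken values and their SE. Over all genes tested 14.1% were called under iberdomide and 21.2% under mezigdomide. By direction, 7.3% were called higher under iberdomide and 10.4% under mezigdomide, and 6.88% under both. The 5 members had a median log2 fold change of 0.19 under iberdomide and 0.28 under mezigdomide, beside -0.0095 and -0.0070 over all genes tested. These 5 genes were not chosen for their response, but earlier results of these data were known when they were chosen. Both comparisons share the DMSO libraries, so that a high or low DMSO group would move them together.

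**Figure D1:**
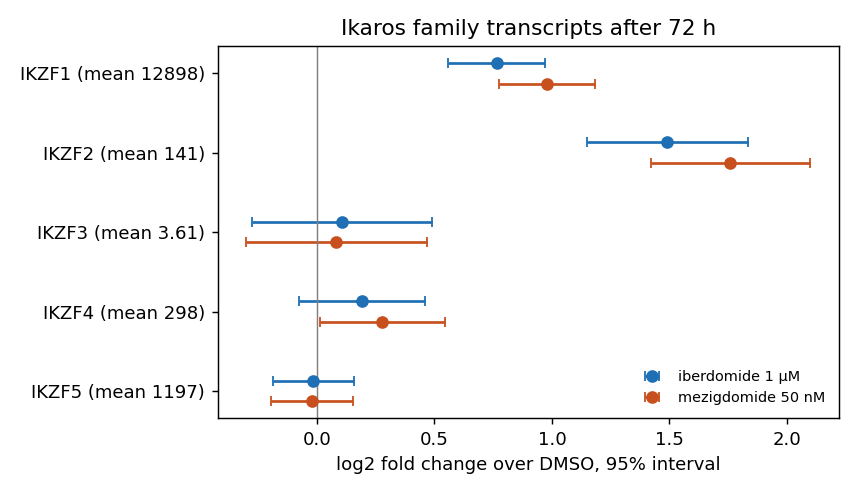
Log2 fold change over DMSO (x axis) of the 5 Ikaros family genes (y axis, with the mean normalised count) under 1 µM iberdomide and 50 nM mezigdomide, with 95% intervals from the deposited SE. The intervals of IKZF1 and IKZF2 lie above 0 under both drugs, and those of IKZF3 and IKZF5 span 0.

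IKZF1, the founding member and a tumour suppressor of lymphoid leukaemia, was higher after both drugs. Its level in each group was estimated here from the mean and both fold changes of the authors' deposited table, at about 8285 normalised counts under DMSO, 14079 under iberdomide and 16331 under mezigdomide. No value by library lies behind these estimates, so that an overlap of single libraries between groups cannot be read from them. The log2 fold change of IKZF1 under iberdomide was 0.76 (SE 0.11) in the authors' deposited table, a 1.7-fold rise with a 95% interval of 1.47 to 1.96 (adjusted p = 1.62e-11). Under mezigdomide IKZF1 stood at 0.98 (SE 0.11) in the authors' deposited table, a 1.97-fold rise with an interval of 1.71 to 2.27 (adjusted p = 7.55e-19). Among the 1424 genes called higher under iberdomide 441 had a larger log2 fold change than IKZF1, and among the 2172 under mezigdomide 428 did. The SE of IKZF1 corresponds to an SD of 0.13 on the log2 scale between libraries of a group, if the spread is equal in both groups. Since this SE comes from the authors' fit over all 9 libraries, that SD is implied and not measured on the libraries.

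An antisense gene lies across IKZF1. AC124014.1 on the opposite strand shares 110 bases of exon with it, 1.01% of the exon bases of IKZF1. The authors' deposited table gave it a mean of 20.9 normalised counts, and log2 fold changes of 0.71 (SE 0.23, adjusted p = 0.0175) under iberdomide and 0.97 (SE 0.23, adjusted p = 0.000232) under mezigdomide. These values are shrunk towards 0 by an amount not known here, so their nearness to those of IKZF1 is no measured match. The library kit is not stated to keep strand, so reads of the 2 genes over the shared bases cannot be told apart. IKZF1 has 18 coding transcripts in GENCODE 29, and the deposited values give 1 sum for all of them.

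IKZF2 had the larger fold change on a far lower level. Its estimated level, from the authors' deposited table, was 58.8 normalised counts under DMSO, 165 under iberdomide and 199 under mezigdomide. Even the highest of these was a small fraction of IKZF1 under DMSO. In the authors' deposited table its log2 fold change was 1.49 (SE 0.17) under iberdomide, 2.81-fold with a 95% interval of 2.22 to 3.57 (adjusted p = 9.78e-16). Under mezigdomide IKZF2 stood at 1.76 (SE 0.17) in the authors' deposited table, 3.39-fold with an interval of 2.68 to 4.29 (adjusted p = 2.46e-22). How far these values are shrunk towards 0 is not known, so the folds, intervals and levels of IKZF2 may be too small in size. Only 135 of the genes called higher under iberdomide and 142 of those under mezigdomide had a larger log2 fold change. No exon of IKZF2 overlaps one of another gene in GENCODE 29.

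The labelled cell type was checked on its markers. The 8 myeloid markers (CD33, FLT3, MPO, SPI1, CEBPA, HOXA9, MEIS1 and LYZ) had means of 1644 to 23353 normalised counts, and 4 of them were called higher under iberdomide and 3 under mezigdomide, beside 7.3% and 10.4% of all genes. With a trend of the fold changes with GC content and length removed, CD33 was no longer called under mezigdomide (0.092, adjusted p = 0.391), and SPI1 (0.27, adjusted p = 0.000762) and CEBPA (0.44, adjusted p = 5.13e-05) were called higher. LYZ (1.39 and 1.51) and MPO (0.91 and 1.11), the lysozyme and myeloperoxidase genes, had the largest log2 fold changes of this list in the authors' deposited table. FLT3 (-0.028 and 0.085) and SPI1 (0.026 and -0.00064) were called under neither drug in the authors' deposited table. Nor were HOXA9 (-0.083 and -0.15) and MEIS1 (-0.084 and -0.055). The summed estimated level of these markers was 48512 under DMSO, 71626 under iberdomide and 75892 under mezigdomide. LYZ, with the largest mean of the list, weighs most in this sum, so its rise is not one of every marker. The 4 B cell markers summed to 56.9, 63.0 and 59.3, with MS4A1 at a mean of 0.242 and PAX5 at 1.22. The 7 T and NK cell markers summed to 1159, 1200 and 1282, most of it NKG7, with CD2 at 0 and CD3E at 0.104. GNLY, a granule protein gene of this list, rose (2.28, SE 0.17, and 2.71, SE 0.17) and CD3D fell (-0.85, SE 0.23, and -1.25, SE 0.23) in the authors' deposited table. The part of the myeloid marker change in the rise of IKZF1 and IKZF2 was not tested, and in bulk RNA a shift between kinds of cells and a change per cell cannot be told apart.

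IKZF4, a close relative of IKZF2 that also has a histidine codon at codon 2 of its finger, did not pass. Estimated from the authors' deposited table, it stood at 267 normalised counts under DMSO, 305 under iberdomide and 323 under mezigdomide. Its log2 fold changes in the authors' deposited table were 0.19 (SE 0.14, adjusted p = 0.453) under iberdomide and 0.28 (SE 0.14, adjusted p = 0.142) under mezigdomide. The 95% interval under mezigdomide ran from 1.01-fold to 1.46-fold, so that the unadjusted p of 0.041 lay under 0.05 and the adjusted one did not. With its SE, IKZF4 needed an estimated change of 1.27-fold under mezigdomide and 1.29-fold under iberdomide to be called.

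IKZF5, the most distant member, had the smallest fold changes. Its levels estimated from the authors' deposited table were 1207, 1194 and 1189 normalised counts under DMSO, iberdomide and mezigdomide. The log2 fold change was -0.015 (SE 0.088, adjusted p = 0.955) under iberdomide and -0.021 (SE 0.088, adjusted p = 0.919) under mezigdomide in the authors' deposited table. Its 95% intervals ran from 0.877 to 1.12 of the DMSO level under iberdomide and from 0.874 to 1.11 under mezigdomide. With its SE, an estimate for IKZF5 of 1.18-fold under iberdomide or 1.17-fold under mezigdomide would have reached the threshold. A true change of that size could be estimated lower and missed. On its opposite strand the exons of PSTK, a tRNA kinase gene, share 81 bases with IKZF5.

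IKZF3, the second protein that both drugs are known to degrade, was close to silent. The digits of its deposited mean allow its reads in each library to be recovered, since the means of genes with 1 read give each library's size factor. A single set of whole reads gave the mean of the authors' deposited table within 1e-13. In order of rising library depth, estimated at 20900000 to 25300000 counted reads, the 9 libraries held 1, 3, 4, 4, 5, 4, 6, 2 and 4 reads of IKZF3, 33 in all. Every library thus held at least 1 read, none more than 6, and the libraries are not tied to groups. The log2 fold changes of IKZF3 in the authors' deposited table were 0.11 (SE 0.20, adjusted p = 0.845) under iberdomide and 0.082 (SE 0.20, adjusted p = 0.845) under mezigdomide. They are shrunk towards 0, so that they may understate a change, and with so few reads their sign is not settled. On this shrunken scale an estimated change of IKZF3 under 1.44-fold for iberdomide or 1.42-fold for mezigdomide could not have been called at this depth.

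**Figure D2:**
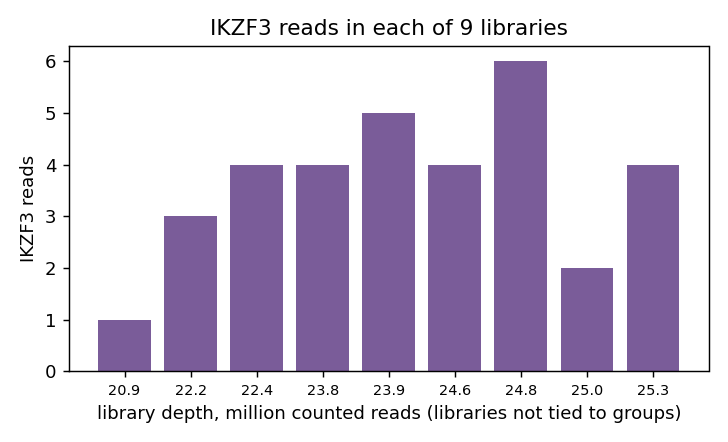
Reads of IKZF3 (y axis) in each of the 9 libraries, ordered by estimated depth (x axis), as recovered from the deposited mean. The bars run from 1 to 6 reads, and the libraries are not assigned to groups.

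Levels were compared between genes per kb of exon, counting every annotated exon base of GENCODE 29. Under DMSO the estimated levels were 758 normalised counts per kb for IKZF1, 245 for IKZF5, 39.2 for IKZF4 and 4.81 for IKZF2. The mean of IKZF3 over all libraries was 0.36 per kb. This order was the same after both drugs, with 1288, 242, 44.8 and 13.5 per kb under iberdomide and 1494, 241, 47.5 and 16.3 under mezigdomide. Under DMSO the closest neighbours in this order were IKZF1 and IKZF5, at a ratio of 3.10. The ratio of IKZF4 to IKZF2 was 8.15 under DMSO, and with 3.31 under iberdomide and 2.92 under mezigdomide these were the closest neighbours after both drugs. On the log2 scale the smallest of these ratios was 1.54, beside an SD between libraries, implied by the SE, of at most 0.21 for these 4 genes. That SD does not cover errors between genes, such as in the exon length used or in how far each fold change is shrunk. IKZF1 exceeded IKZF2 158-fold per kb under DMSO and 91.8-fold under mezigdomide. Summed over the family, the estimated level went from 9820 normalised counts under DMSO to 15747 under iberdomide and 18046 under mezigdomide, and IKZF1 held 84.4%, 89.4% and 90.5% of it. Those shares are of counts, which favour genes with long exons. Per kb of exon IKZF1 held 72.4%, 81.1% and 83.0% of the family sum, and IKZF5 held 23.4%, 15.2% and 13.4%.

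**Figure D3:**
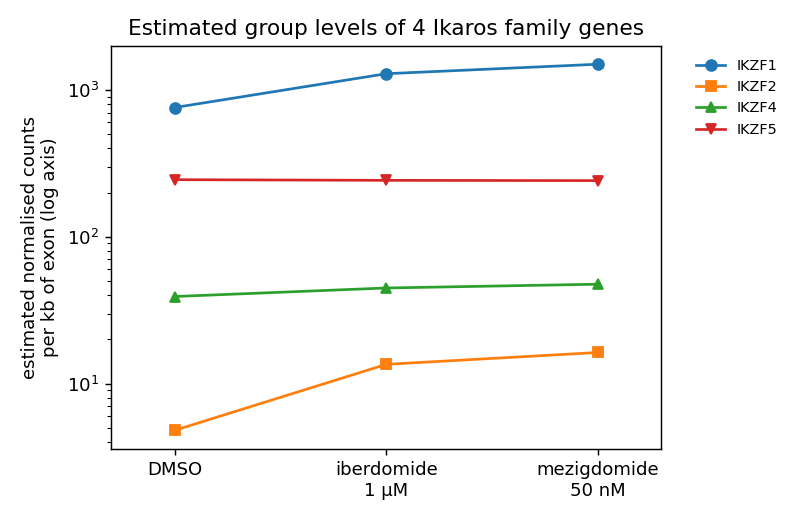
Estimated level of IKZF1, IKZF2, IKZF4 and IKZF5 (y axis, normalised counts per kb of exon, log axis) under DMSO, 1 µM iberdomide and 50 nM mezigdomide (x axis), computed from the deposited mean and fold changes, with no value by library and so no error bar. The lines of IKZF1 and IKZF2 rise from DMSO to both drugs, from 758 to 1494 and from 4.81 to 16.3 per kb, and those of IKZF4 and IKZF5 stay close to level.

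The treatments were then set against each other at the doses used. The fold change of IKZF1 was 1.16 times as large under 50 nM mezigdomide as under 1 µM iberdomide (log2 difference 0.21, SE 0.15, 95% interval 0.948 to 1.42 times). For IKZF2 the ratio was 1.2 (log2 difference 0.27, SE 0.25), with an interval of 0.862 to 1.68. None of the 5 differences passed (normal test with independent errors, Benjamini-Hochberg adjusted p = 1.00 for each), and 0 had an unadjusted p under 0.05. Over all genes 0.108% were called in this test. The SE is an upper limit, since the shared DMSO libraries make the errors of both fold changes correlate. With an error correlation of 0.5 IKZF1 alone had an unadjusted p under 0.05 (0.0418), with an adjusted p of 0.999. These intervals leave room for IKZF2 to differ by up to 1.68 times, and since the doses differ they compare treatments, not molecules.

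**Figure D4:**
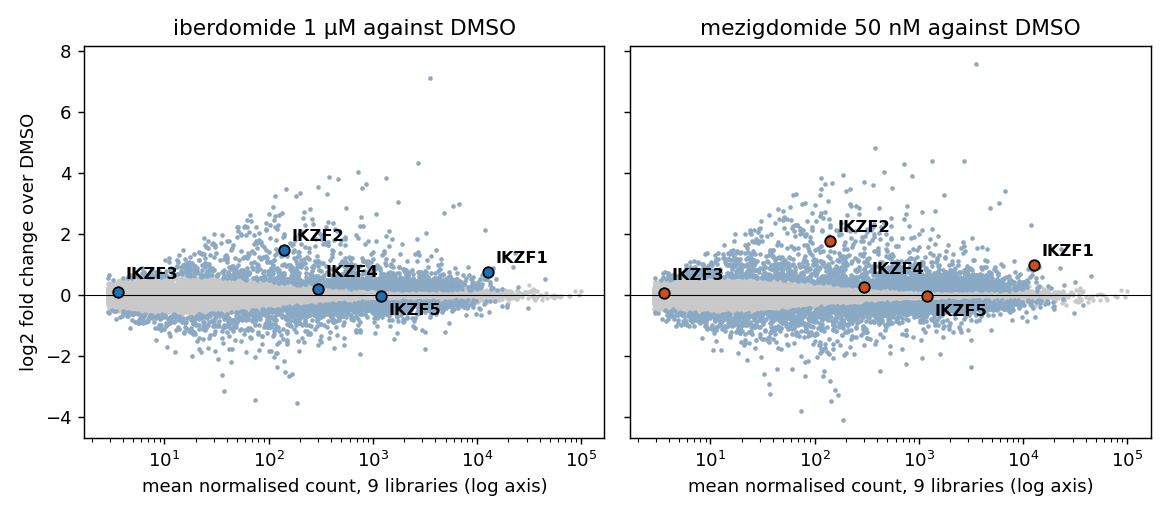
Log2 fold change over DMSO (y axis) against the mean normalised count of the 9 libraries (x axis, log axis) for 19497 genes, with iberdomide on the left and mezigdomide on the right. Blue-grey points passed an adjusted p of 0.05, grey ones did not, and the 5 family members are named. IKZF1 stands among the most abundant genes of all, and IKZF3 at the left edge.

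The genes next to the family members were read as well, as the nearest protein-coding gene on each side. None of the 7 neighbours tested under both drugs was called under either. Among all genes tested, 14.1% were called under iberdomide and 21.2% under mezigdomide. With 7 genes this count is thus too small to be read as a trait of the neighbours. FIGNL1, a DNA repair gene 39027 bases from IKZF1, stood at 0.040 (SE 0.086) under iberdomide and 0.091 (SE 0.086) under mezigdomide in the authors' deposited table. ERBB4, a receptor kinase gene beside IKZF2, stood at -0.40 (SE 0.19, adjusted p = 0.157) under iberdomide, the largest in size among these neighbours and opposite in sign to IKZF2, and at -0.052 (SE 0.18) under mezigdomide in the authors' deposited table. SPAG16 on the other side of IKZF2 stood at 0.13 (SE 0.21) and 0.10 (SE 0.21) in the authors' deposited table. SUOX, the sulfite oxidase gene 1018 bases from IKZF4, stood at -0.077 (SE 0.088) and -0.018 (SE 0.087) in the authors' deposited table. ACADSB, an acyl-CoA dehydrogenase gene 162 bases from IKZF5, stood at 0.12 (SE 0.092) and 0.19 (SE 0.092) in the authors' deposited table. PSTK, the neighbour of IKZF5 on the other side, stood at 0.17 (SE 0.12) and 0.066 (SE 0.12) in the authors' deposited table. SPATA48 beside IKZF1 and GRB7 and ZPBP2 beside IKZF3 had means under 1 and were not tested. The ribosomal protein gene RPS26 beside IKZF4 had the smallest adjusted p of these neighbours, 0.0929 under mezigdomide (log2 -0.28, SE 0.12) in the authors' deposited table.

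The core letters that Ikaros proteins bind, GGGAA or TTCCC on the other strand, were counted in the start-site windows of RefSeq (GRCh38.p14), each of 300 bases. Windows were found for 4 of the 5 members. Of 35116 windows in all 65.0% hold these letters at least once. The IKZF1 window nearest to its annotated start held 2 matches, that of IKZF2 held 0, and those of IKZF4 and IKZF5 held 1 each. In their further windows IKZF4 had 3 matches each time, IKZF1 had 2 and 0, IKZF2 had 0 and IKZF5 had 1. The further windows of IKZF4 overlap each other, and so do the windows of IKZF5, so that the same match can be counted more than once. At least 3 matches were found in 10.3% of all windows. These matches describe letters and not binding sites.

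Genes with a response pattern like that of IKZF1 or IKZF2 were named by the distance between pairs of log2 fold changes, over the 2 comparisons and among 1963 other genes called under both drugs with a mean of at least 100. Nearest to IKZF1 (0.76 and 0.98) were AC108134.3, the stress kinase gene MAPK13, the Ras regulator gene RASAL2, the diacylglycerol kinase gene DGKH and the macrophage membrane gene MS4A6A. Their distances ran from 0.011 for AC108134.3 to 0.042 for MS4A6A. Nearest to IKZF2 (1.49 and 1.76) were PSD3, HLA-DQB1, TMEM45A, PRDM1 and SERPINH1. PRDM1, the Blimp-1 repressor of plasma cells and macrophages, lay at 1.62 and 1.76 in the authors' deposited table. HLA-DQB1, a polymorphic antigen presentation gene whose reads can be shared with close copies, lay at 1.42 and 1.73 in the authors' deposited table. With only 2 comparisons that share a control, such likeness is a description.

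The genes through which the drugs act on the family had small fold changes. The cereblon ligase list had 1 of 5 members higher under both drugs, CUL4B, and 0 lower, also at an unadjusted p under 0.05. Its median log2 fold change was 0.028 under iberdomide and -0.046 under mezigdomide. Among all genes tested, 7.3% were called higher under iberdomide, 10.4% under mezigdomide and 6.88% under both. Called lower were 6.77% and 10.7%. With 5 members, these counts are too few to be read as a trait of the list. In the authors' deposited table CUL4B, a cullin scaffold, stood at 0.23 (SE 0.067, adjusted p = 0.00592) and 0.28 (SE 0.066, adjusted p = 0.000227). Its call under iberdomide did not hold with a trend of the fold changes with GC content and transcript length removed (0.17, adjusted p = 0.0609). There its relative CUL4A was called lower, at -0.16 under iberdomide (adjusted p = 0.0172) and -0.17 under mezigdomide (adjusted p = 0.00649). CRBN, cereblon itself, stood in the authors' deposited table at 0.028 (SE 0.076, adjusted p = 0.9) and -0.065 (SE 0.076, adjusted p = 0.647).

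Of 10 other reported cereblon substrates 8 were tested, and SALL4 and ZNF827 had means under 1. Under iberdomide 1 rose and 1 fell, and under mezigdomide 2 rose and 1 fell, with medians of 0.086 and 0.11. Over all genes 14.1% and 21.2% were called in either direction. ZNF692, a zinc finger gene, rose 2.23-fold (log2 1.16, SE 0.12) under iberdomide and 2.22-fold (1.15, SE 0.12) under mezigdomide in the authors' deposited table. ZBTB16, which encodes the transcription factor PLZF, stood at -0.83 (SE 0.12) and -0.97 (SE 0.12) in the authors' deposited table, 0.509 of the DMSO level under mezigdomide. In the authors' deposited table ZMYM2 rose under mezigdomide (0.29, SE 0.089, adjusted p = 0.00746), a call that did not hold with the GC and length trend removed (0.087, adjusted p = 0.585). GSPT1, a translation termination factor, did not pass at -0.071 (SE 0.059) and -0.072 (SE 0.059) in the authors' deposited table. With that trend removed GSPT1 was called lower, at -0.17 (adjusted p = 0.0374) and -0.23 (adjusted p = 0.0012).

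Partners of Ikaros in chromatin, the NuRD, SIN3, CTBP and SWI/SNF components, were all tested, 17 of 17. Under iberdomide 2 were lower and 0 higher, and under mezigdomide 4 were lower and 0 higher, with medians of -0.059 and -0.033. Over all genes 6.77% and 10.7% were called lower. At an unadjusted p under 0.05, 1 partner was higher under iberdomide and 0 under mezigdomide. SMARCA4, the SWI/SNF ATPase, stood at -0.18 (SE 0.053) and -0.24 (SE 0.053) in the authors' deposited table. MBD2, a methyl-CpG reader of NuRD, stood at -0.24 (SE 0.085) and -0.27 (SE 0.085) in the authors' deposited table. RBBP7, a histone chaperone (-0.19, SE 0.064), and the corepressor CTBP1 (-0.23, SE 0.085) fell under mezigdomide in the authors' deposited table. The call of CTBP1 did not hold with the GC and length trend removed (-0.18, adjusted p = 0.145). CHD4, the NuRD ATPase that binds Ikaros, stood at -0.058 (SE 0.066) under mezigdomide in the authors' deposited table and was called lower with that trend removed (-0.18, adjusted p = 0.0398). In the authors' deposited table MBD3, the relative of MBD2, stood at -0.20 under mezigdomide (SE 0.081, adjusted p = 0.0543). It was called lower once genes with a mean below 50 were left out (adjusted p = 0.0379). All of these changes were smaller than those of IKZF1 and IKZF2.

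Genes reported as regulated by Ikaros in lymphoid precursors or myeloma were mixed. Of 22 such genes 14 were tested under iberdomide, with 2 higher and 1 lower, and 15 under mezigdomide, with 4 higher and 1 lower. Over all genes 7.3% were called higher and 6.77% lower under iberdomide, and 10.4% and 10.7% under mezigdomide. The medians of the list were 0.072 and 0.085, and 4 of the 22 (VPREB1, DNTT, DTX1 and IL2) had a mean of 0. IGLL1, a surrogate light chain gene of early B cells, fell to 0.0857 of its DMSO level under iberdomide and 0.0582 under mezigdomide in the authors' deposited table. IL7R, the interleukin-7 receptor chain, rose 4.28-fold and 6.74-fold in the authors' deposited table. BLNK, a B cell adaptor, stood at 0.33 (SE 0.23, adjusted p = 0.455) under iberdomide in the authors' deposited table and rose under mezigdomide (1.02, SE 0.23, adjusted p = 0.000145), with a mean of 14.0 normalised counts. The difference of BLNK between the treatments did not pass (0.69, SE 0.33, adjusted p = 1.00). MYC stood at 0.19 (SE 0.065) and 0.23 (SE 0.065), and the ligase gene LIG4 rose under mezigdomide (0.31, SE 0.084), in the authors' deposited table.

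**Figure D5:**
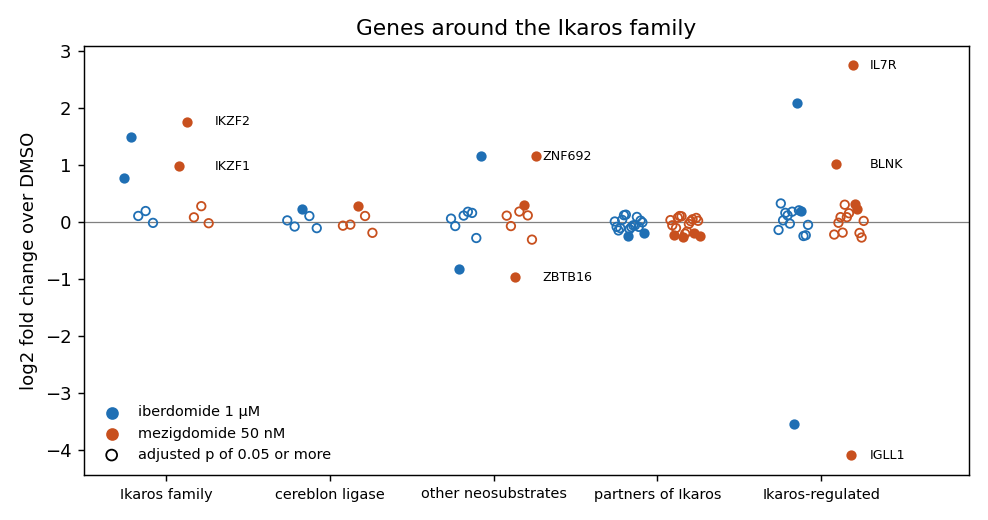
Log2 fold change over DMSO (y axis) of every tested gene of 5 lists (x axis: Ikaros family, cereblon ligase, other cereblon substrates, chromatin partners and genes reported as regulated by Ikaros), in blue for 1 µM iberdomide and orange for 50 nM mezigdomide. Filled points passed an adjusted p of 0.05, and named genes are called under mezigdomide with an absolute value over 0.9. IL7R at 2.75 and IGLL1 at -4.10 mark the range under mezigdomide, and the points of the ligase and partner lists lie near 0.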

How the data were processed

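Poly(A) RNA of 9 MOLM13 libraries was prepared with a NEBNext Ultra kit and read as 37 bp pairs, per the labels' protocols. The treatment label of the mezigdomide libraries spells its code differently from their titles, which were followed. Per the submitters' processing notes, DESeq2, HTSeq 0.6.1pl and STAR 2.7.5a were used on GRCh38, beside SAMtools 1.95, bcl2fastq 2.20.0.422 and Picard 2.9.4, with no role or order named. Not given in the sources used here are the annotation release and the strand setting. Both deposited tables (59699 rows) hold, per the file headers, a mean signal (counts divided by size factors, averaged over 9 libraries), a log2 fold change and its SE, a score (the Wald statistic) and p-values, raw and adjusted. Shrinkage is visible in the deposited log2 fold changes: those of genes with 1 read reach at most 0.0132. The deposited adjusted p-values are Benjamini-Hochberg values over genes with a mean above 2.87 (iberdomide) or 2.01 (mezigdomide).

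The authors' test was used as deposited, after 44 rows of chromosome Y copies and 92 rows naming no gene (3.39e-05% of the signal) were left out. This left 19497 and 20819 tested genes. Group levels were computed as the mean and both fold changes imply for 3 libraries a group. The difference between treatments was a two-sided normal test with independent errors. It was also run on simulated data, which held no shrinkage and no planted difference as small as those of the family members. That run does not show how the test performs on such differences. Reads of IKZF3 were found as the only whole numbers that give its mean. Positions, exons and coding sequences came from GENCODE 29, whose gene version differs from the deposited one for IKZF1, IKZF3 and IKZF4. Start-site windows came from RefSeq. Python 3.11.15, numpy 2.4.6, pandas 2.3.3 and scipy 1.17.1 were used.

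Members and lists were chosen with earlier results of these data known. Named were the 5 members, up to 6 called genes of each list with CRBN and GSPT1, the nearest protein-coding genes, and the 5 genes of nearest pattern. Chosen after their values were seen were AC124014.1, PSTK as an overlapping gene, CUL4A, CHD4, MBD3, SALL4, ZNF827 and the marker genes singled out.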

Additional observations from a re-analysis of the deposited data

Results flagged for a closer look

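IL7R was the 1 gene among the family and the 4 lists around it whose response differed between the treatments. The log2 fold change of IL7R was 0.65 larger under 50 nM mezigdomide (2.75, SE 0.089) than under 1 µM iberdomide (2.10, SE 0.090). This difference had an SE of 0.13 (normal test with independent errors, Benjamini-Hochberg adjusted p = 0.000503).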

How the results depend on the processing

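No paired analysis was possible because the deposited tables hold comparisons and no value per library, and leaving out a replicate could not be done for the same reason. The alternatives were no filter on the mean, a mean of at least 50, protein-coding genes only, fold changes centred on the median of genes with a mean of at least 100, Benjamini-Yekutieli adjustment, an error correlation of 0.5 for the difference, and, chosen after seeing the data, fold changes corrected for GC content and length. Of 147 values computed under them 139 kept their direction and their side of the threshold or, for counts of a list, stayed within 1.5 times, which does not mean the same genes. Direction could change only with centred fold changes or with GC and length corrected for. The other alternatives leave every fold change as it was and change only its error or the adjustment of p. The total is thus no measure of how firm the directions are. With a mean of at least 50 the partners went from 4 to 5 lower under mezigdomide (MBD3 gained) and the Ikaros-regulated genes from 4 to 3 higher (BLNK not tested), and IKZF3 was not tested. With GC and length corrected for, the partners stayed at 4 lower with CTBP1 lost and CHD4 gained, and CRBN, uncalled, turned to -0.034 under iberdomide. IKZF1 ranged from 0.68 to 0.77 under iberdomide and from 0.85 to 0.99 under mezigdomide, IKZF2 from 1.39 to 1.5 and from 1.58 to 1.77, and both passed in every alternative run. With GC and length corrected for, IKZF3 turned to -0.025 under iberdomide and -0.14 under mezigdomide, without passing. In the same alternative the ligase list went to 0 higher under iberdomide and 1 lower under each drug, and the other cereblon substrates to 2 lower under each drug and 1 higher under mezigdomide. The difference test called 21 genes of all with independent errors and 118 with an error correlation of 0.5. Depth limits IKZF3, which had the fewest reads of the 5.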
